A study of Mus musculus with 13 samples.

Results

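The 3 D cyclins (Ccnd1, Ccnd2 and Ccnd3), the G1 kinases Cdk4, Cdk6 and Cdk2, the inhibitors Cdkn1b, Cdkn1c and Cdkn2c, and the retinoblastoma gene Rb1 were followed in C2C12 myotubes exposed to palmitoylethanolamide (PEA), a fatty acid amide that the body makes. The 10 genes were listed by symbol, not by a measured value, and matched to Ensembl gene columns. All 10 were among the 16382 genes of the deposited tables and among the 13142 that passed the filter on low counts.

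C2C12 is a mouse myoblast line whose cells leave the cell cycle in low-serum medium and fuse into multinucleated myotubes. Both groups were wild-type (WT) C2C12 cells, taken to day 8 of differentiation in the same medium. CON received the vehicle, DMSO, and PEA received 10 µM of the compound, each for 24 h. Each group held 6 RNA-seq libraries, from duplicate wells of an experiment repeated 3 times, and the labels do not say which wells belong together. All libraries come from 1 cell line, so the tests measure the spread between these cultures. Wells of the same repeat share an experiment, and the tests count them as 6 independent replicates per group, so SEs and p-values may be too small. Such cultures keep unfused myoblasts beside the myotubes, and no library of proliferating myoblasts was analysed here, so the levels have no dividing reference.

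D-type cyclins bind CDK4 or CDK6 in G1, and these complexes begin to phosphorylate the retinoblastoma protein, which otherwise holds E2F transcription factors silent. Cyclin E with CDK2 completes this step and opens S phase. Inhibitors of the INK4 family bind CDK4 and CDK6, while those of the CIP/KIP family bind cyclin-kinase complexes more broadly. In muscle, cell cycle exit before fusion is known to rest on the retinoblastoma protein and on CDK inhibitors, and D cyclins are known to be regulated apart from one another, cyclin D3 being the one retained in myotubes.

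Of the 10 genes, Cdkn2c was the one that passed the test. It rose in PEA by 1.28-fold (95% interval 1.16 to 1.40), and no PEA library overlapped a CON library. The other 9 genes did not pass the test, with 6 of them higher and 3 lower in PEA. Their fold estimates lay between 0.876 for Cdkn1c and 1.09 for Ccnd2. In the whole fit 11.0% of genes passed, and 6.31% passed as higher in PEA, so 1 called gene of 10 is near the background. The median log2 fold change was 0.06 over the 10 genes and 0.01 over all genes tested. Tests are edgeR's quasi-likelihood test with Benjamini-Hochberg adjustment over the 13142 genes at a threshold of 0.05.

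Values below are the normalized counts that the authors deposited, which are estimated counts divided by 1 factor per library. Libraries held 12354845 to 50397444 estimated counts, with a median of 18420605, and CON replicate 1 was the deepest. Myotube markers were present in every library. Their summed normalized count ran from 116687 to 177181 in CON and from 123859 to 139386 in PEA. Of these markers 12 of 12 were lower in PEA, 3 of them past the test (Tnnt3, Mymx and Myh8). Of all 13142 genes tested, 6404 were lower and 623 passed as lower. The embryonic myosin gene Myh3 averaged 12453 ± 3919 (SD, n = 6) in CON and 11358 ± 846 in PEA. The creatine kinase gene Ckm averaged 662 and 544, and the differentiation factor Myog 12261 and 10714, in CON and PEA respectively. CON replicate 3 had the lowest count of each of these 3 genes, 6584 for Myh3, 442 for Ckm and 9097 for Myog, and without it Ckm (log2 fold change -0.38, adjusted p = 0.0268) and Myog (-0.26, adjusted p = 0.0168) passed as lower in PEA. Among myoblast and satellite cell markers 1 of 4 tested passed, Cdh15, which was lower. Myod1 averaged 1899 in CON and 1765 in PEA, and Pax7, the satellite cell factor, 114 and 111, while Pax3 had 0 to 3 estimated counts per library. Of fibroblast markers 1 of 4 tested passed, the matrix gene Dcn, which was higher. Beside these counts, 11.0% of all genes tested passed in either direction. Macrophage markers summed to at most 140 normalized counts and endothelial markers to at most 13.3 in any library, and Ptprc had 0 to 6 estimated counts.

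**Figure D1:**
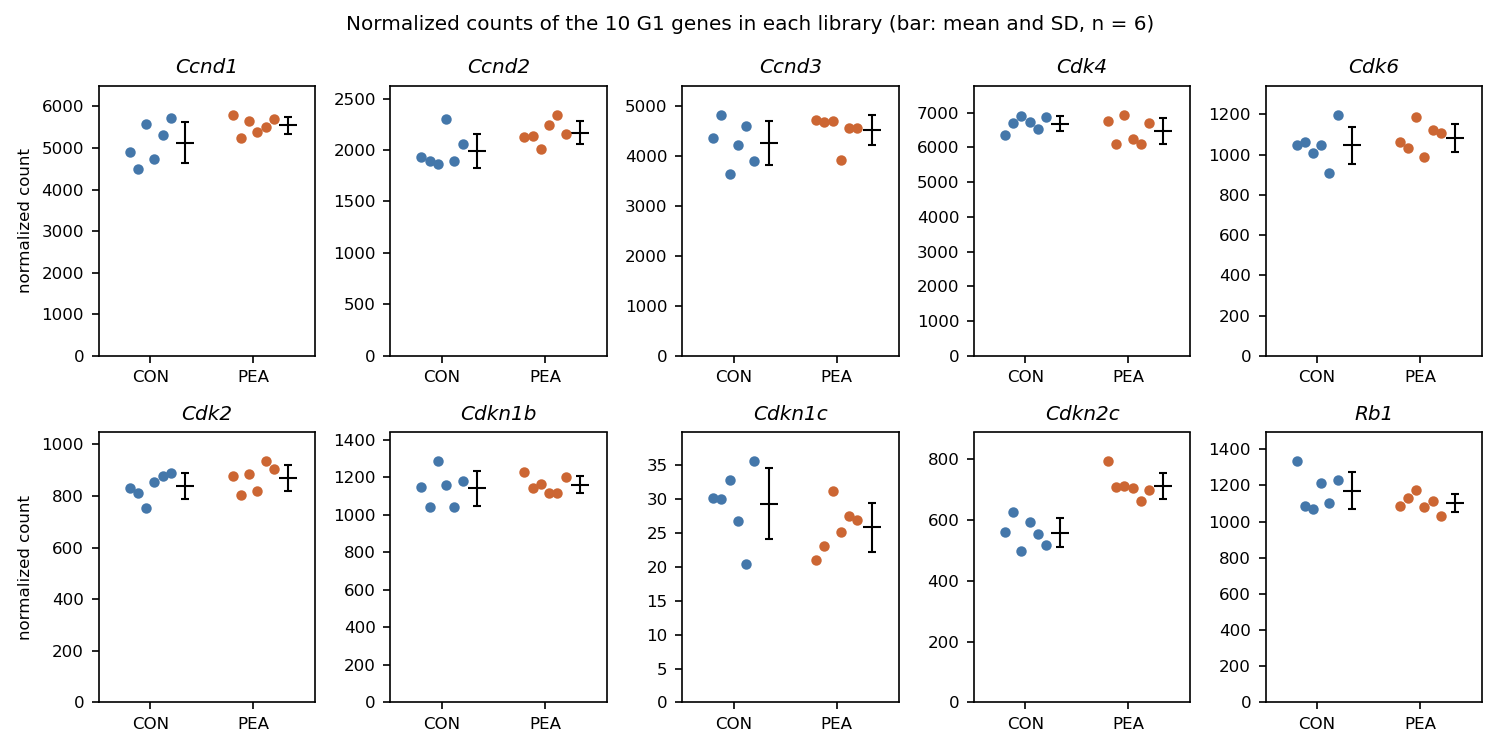
Normalized counts (linear scale, deposited values) of the 10 genes in each of the 6 CON and 6 PEA libraries, 1 panel per gene with its own axis; bars mark group means and SD. Cdkn2c is the gene whose groups do not overlap, with CON at 499 to 626 and PEA at 661 to 792.

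The D cyclins are the sensors of growth factors in G1, and all 3 were somewhat higher in PEA without passing the test. Ccnd1, encoding cyclin D1 (GRCm39 chr7:144483668-144493662, minus strand), ran from 4502 to 5730 in CON with a median of 5104, and from 5241 to 5797 in PEA with a median of 5585. Every PEA library lay above the CON median, but the 3 highest CON libraries lay inside the PEA range. On the log2 scale PEA was 0.12 ± 0.06 (SE) higher, at an adjusted p of 0.200. Ccnd1 shares 2315 of its 4783 exon bases with LTO1 on the other strand, and LTO1 averaged 445 ± 13.2 in CON and 457 ± 32.3 in PEA, far below Ccnd1.

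Ccnd2, encoding cyclin D2 (chr6:127102125-127129156, minus strand), ran from 1861 to 2303 in CON with a median of 1915, and from 2010 to 2341 in PEA with a median of 2143. All 6 PEA libraries exceeded the CON median, while CON replicate 4 at 2303 was higher than all PEA libraries but the highest. The log2 fold change was 0.13 ± 0.06 (SE, adjusted p = 0.151). Without CON replicate 4 it was 0.17 and passed, with an adjusted p of 0.0321, so whether this gene passes depends on 1 library.

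Ccnd3, encoding cyclin D3 (chr17:47815767-47910624, plus strand), ran from 3643 to 4829 in CON with a median of 4292. In PEA it ran from 3933 to 4723 with a median of 4634, and 5 of the 6 libraries lay closely together at 4563 or more. The groups overlapped over nearly their whole range, and the log2 fold change was 0.09 ± 0.07 (SE, adjusted p = 0.400). Ccnd3 shares 369 exon bases with Bysl on the other strand, which averaged 1592 ± 157 in CON and 1419 ± 44.7 in PEA. Bysl did not pass the test (-0.16 ± 0.06 on the log2 scale, adjusted p = 0.08), and reads from the shared stretch cannot be told apart here either. In CON the D1 and D3 genes did not follow one order. CON replicate 2 was lowest for Ccnd1 and highest for Ccnd3, and CON replicate 3 was lowest for Ccnd3 while its Ccnd1, at 5574, was the second highest of its group.

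Levels between genes were compared per kilobase of annotated exon. Ccnd1 made up 61.3 ± 3.78% (SD, n = 6) of the summed D cyclin level in CON and 61.7 ± 1.11% in PEA. Ccnd3 made up 26.5 ± 3.33% and 26.1 ± 1.31%, and Ccnd2 12.2 ± 1.22% and 12.3 ± 0.846%. The make-up of the D cyclin pool differed between groups by less than the SD of either. The split between Ccnd1 and Ccnd3 depended on gene length: per kilobase of the longest annotated transcript, Ccnd1 held 48.3% and Ccnd3 40.2% in CON, and 48.6% and 39.8% in PEA. Ccnd1 had the highest mean level of the 3 with either length.

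**Figure D2:**
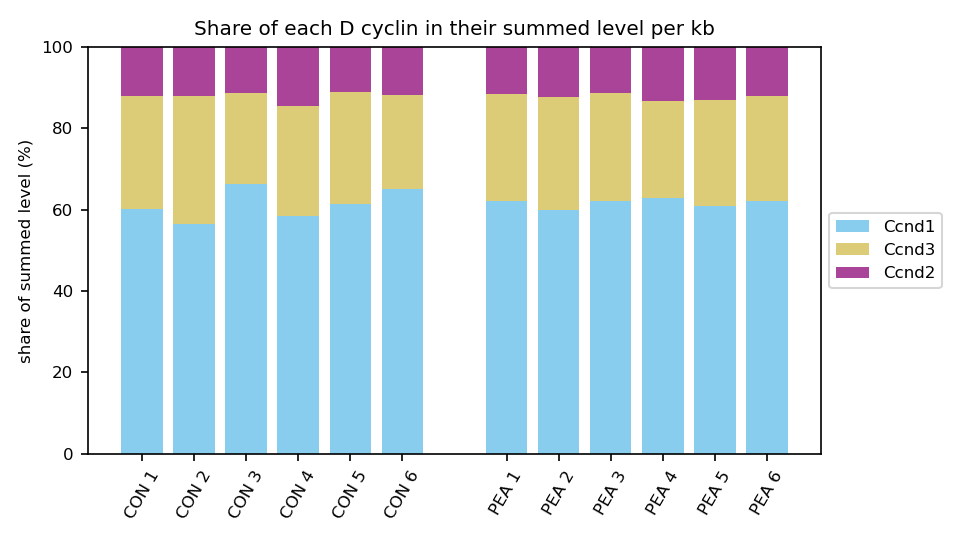
Share (%) of each D cyclin in their summed level per kilobase of exon, by library, for 6 CON and 6 PEA libraries. Ccnd1 holds 56.5 to 66.3% in CON and 59.9 to 62.9% in PEA, and the shares of all 3 genes overlap between the groups.

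Cdk4 encodes the main partner of the D cyclins and had the highest level of the 10 genes. Its normalized count (chr10:126895180-126903789, plus strand) ran from 6360 to 6913 in CON with a median of 6717, and from 6085 to 6932 in PEA with a median of 6474. The groups overlapped throughout, and the fold of PEA over CON was 0.970 with a 95% interval of 0.909 to 1.03. Cdk4 shares 646 exon bases with Tspan31 on the other strand. Tspan31 fell by 0.16 ± 0.04 on the log2 scale (SE, adjusted p = 0.0304, edgeR), and since strand use is not stated in the sources used here, reads from the shared stretch cannot be told apart.

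Cdk6, encoding the second kinase for D cyclins (chr5:3391485-3581008, plus strand), ran from 910 to 1197 in CON with a median of 1048, and from 989 to 1186 in PEA with a median of 1083. Its log2 fold change was 0.05 ± 0.06 (SE, adjusted p = 0.649). Per kilobase, Cdk4 stood 26.9 ± 2.18 times as high as Cdk6 in CON and 25.1 ± 1.43 times in PEA. Cdk2, the partner of cyclins E and A (chr10:128533796-128540963, minus strand), ran from 754 to 891 in CON with a median of 844, and from 802 to 934 in PEA with a median of 881. Its groups overlapped as well, and its log2 fold change was 0.06 ± 0.05 (SE, adjusted p = 0.517). Cdk2 shares 34 exon bases on the other strand with Pmel, which averaged 3.26 in CON and 6.31 in PEA. For all 3 kinases the 95% interval of the fold lay within 0.909 to 1.13.

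Among the inhibitors, Cdkn2c encodes a member of the INK4 family that binds CDK4 and CDK6. The gene lies on chr4:109517957-109524386 of GRCm39, minus strand. In CON replicates 1 to 6 its normalized counts were 559, 626, 499, 593, 555 and 518. In PEA replicates 1 to 6 they were 792, 707, 710, 705, 661 and 699. Each PEA library was above each CON library, a separation that 4.34% of all genes tested showed in either direction. The means were 558 ± 46.9 (SD, n = 6) in CON and 712 ± 43.1 in PEA. On the log2 scale the rise was 0.35 ± 0.06 (SE), and the adjusted p from edgeR was 0.00327. It passed in each of 6 alternative analyses and without any 1 of the 12 libraries. The exons of Cdkn2c overlap no other gene of the tables, but share 150 and 342 bases with 2 lncRNA genes on the other strand that were not analysed here.

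The kinase genes whose products this inhibitor binds, Cdk4 and Cdk6, did not pass the test. Per kilobase, Cdkn2c stood at 0.0436 ± 0.00427 (SD, n = 6) of the summed level of Cdk4 and Cdk6 in CON, with a range of 0.0377 to 0.0487. In PEA the ratio was 0.0573 ± 0.00326, with a range of 0.0533 to 0.0611, so the groups did not overlap. Cdk4 made up most of that sum. The mean level of Cdkn2c was above that of Cdk6 in both groups, 87.8 against 72.5 per kilobase in CON with overlapping libraries, and 112 against 75.0 in PEA without overlap. The ratios given here were chosen after the values had been seen and carry no test.

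The promoter windows of Cdkn2c are shown because it was the gene that rose, and that of Cdk2 because it holds 2 of the motifs searched. Windows of 250 bases before to 50 after the annotated start came from RefSeq for GRCm38.p6, and 6 of the 10 genes had one. Each window was searched on both strands for E2F letters (TTTCCCGC, TTTGGCGC or TTTCGCGC), the CHR letters TTTGAA known from genes of late cell cycle phases, and the muscle E-box letters CAGCTG. Of all 32851 windows, 1.84% held E2F letters, 17.9% the CHR letters and 16.3% the E-box letters. The 250 bases before each start are printed in the gene's direction, with matches in capitals. The first Cdkn2c window is chr4:109665373-109665622, the second chr4:109666757-109667006 and that of Cdk2 chr10:128705052-128705301, all on the minus strand.
Cdkn2c, first start: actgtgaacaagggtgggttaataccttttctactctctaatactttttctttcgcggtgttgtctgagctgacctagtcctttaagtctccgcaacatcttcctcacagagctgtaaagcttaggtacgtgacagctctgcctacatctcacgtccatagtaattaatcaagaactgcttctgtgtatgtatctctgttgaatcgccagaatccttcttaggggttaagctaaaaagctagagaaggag
Cdkn2c, second start: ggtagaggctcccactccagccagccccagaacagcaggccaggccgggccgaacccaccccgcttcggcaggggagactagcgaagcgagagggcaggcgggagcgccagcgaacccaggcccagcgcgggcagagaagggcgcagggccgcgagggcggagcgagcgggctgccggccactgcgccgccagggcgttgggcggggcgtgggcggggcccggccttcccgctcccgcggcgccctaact
Cdk2: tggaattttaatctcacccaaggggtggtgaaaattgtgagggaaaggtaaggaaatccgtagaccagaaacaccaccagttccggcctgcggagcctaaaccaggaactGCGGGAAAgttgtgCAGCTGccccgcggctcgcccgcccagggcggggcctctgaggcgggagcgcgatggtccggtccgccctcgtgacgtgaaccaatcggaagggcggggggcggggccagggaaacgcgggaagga
Neither Cdkn2c window held any of the letters searched, and the 2 windows differed in base composition, with 42.8% and 77.2% G and C in the bases shown. The Cdk2 window held TTTCCCGC on the minus strand of the sequence, its first base 140 before the start, and CAGCTG 126 before the start. The windows of Ccnd3, Cdk4, Cdk6 and Cdkn1b held none of the letters. Ccnd1, Ccnd2, Cdkn1c and Rb1 were without an entry. A match describes the sequence and is no evidence of binding.

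Cdkn1b encodes a CIP/KIP inhibitor of cyclin E and CDK2 complexes that is known to accumulate when cells stop dividing. Its normalized count (chr6:134897364-134902476, plus strand) ran from 1039 to 1283 in CON with a median of 1152, and from 1114 to 1225 in PEA with the same rounded median. The PEA range lay inside the CON range. The log2 fold change was 0.03 ± 0.06 (SE, adjusted p = 0.808), and the 95% interval of the fold ran from 0.939 to 1.10.

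Cdkn1c, an imprinted CIP/KIP gene known for cell cycle exit in development, was near the low end of detection. It had 13 to 79 estimated counts per library (chr7:143012069-143014806, minus strand). Its normalized count ran from 20.4 to 35.6 in CON with a median of 30.1, and from 21.0 to 31.3 in PEA with a median of 26.1. The groups overlapped, and the interval of the fold, 0.645 to 1.19, was the widest of the 10 genes.

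Rb1 encodes the retinoblastoma protein, the target of the D cyclin kinases. Its normalized count (chr14:73421113-73563507, minus strand) ran from 1071 to 1332 in CON with a median of 1156, and from 1028 to 1174 in PEA with a median of 1099. The 2 groups overlapped, and 1 of 6 PEA libraries lay above the CON median. The log2 fold change was -0.09 ± 0.06 (SE, adjusted p = 0.351). Its exons share 488 bases with Rcbtb2 and 408 with Lpar6 on the other strand, neither of which passed the test.

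**Figure D3:**
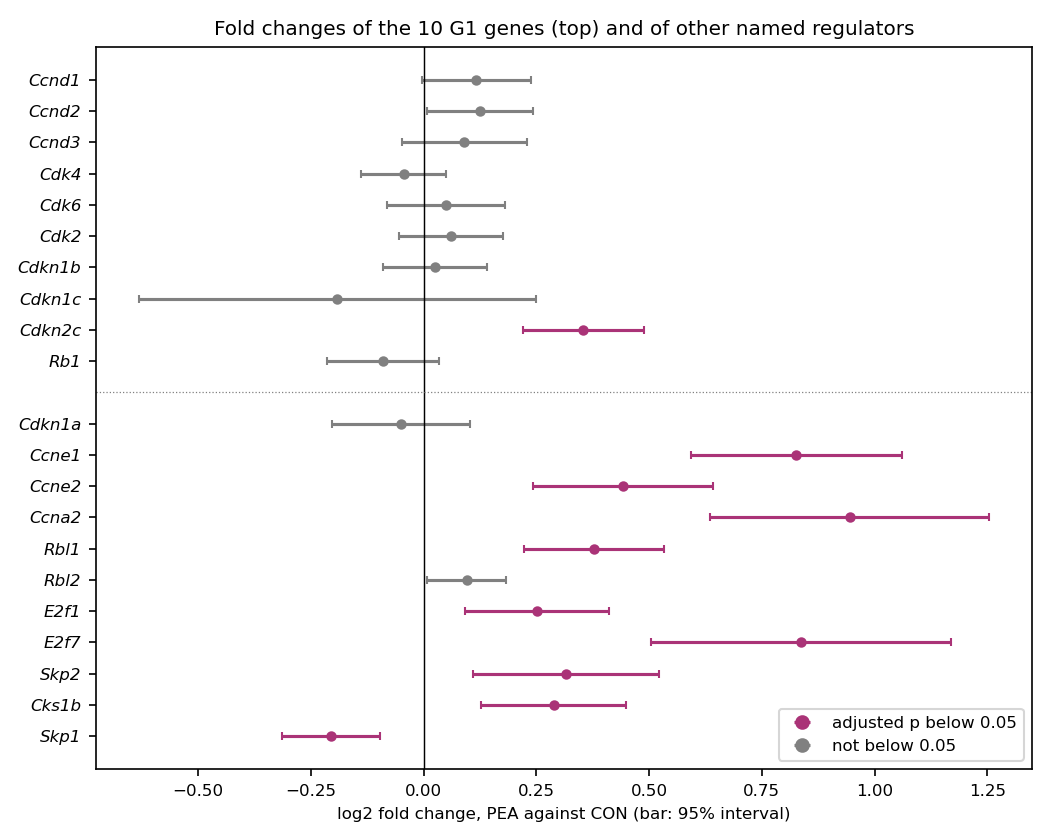
Log2 fold change of PEA over CON from edgeR with 95% intervals for the 10 genes and for other named G1 regulators. Of the 10 genes, Cdkn2c at 0.35 is the one that passed the adjusted threshold of 0.05, although the interval of Ccnd2 also leaves out 0.

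Ordered by level per kilobase in CON, Cdk4 came first with 1943 ± 60.4 (SD, n = 6), followed by Ccnd1 with 1071 ± 103 and Ccnd3 with 461 ± 47.3. Cdkn1b with 251 ± 20.3 and Ccnd2 with 212 ± 17.9 overlapped in their libraries and hold no order. Cdk2 stood at 133 ± 7.95. Rb1 at 97.1 ± 8.59 overlapped with Cdkn2c at 87.8 ± 7.38, and Cdkn2c overlapped with Cdk6 at 72.5 ± 6.41. Cdkn1c was last with 13.6 ± 2.45. The remaining neighbours in the order did not overlap in CON with this length. In PEA, Cdkn2c at 112 ± 6.78 stood above Rb1 at 91.4 ± 4.13 without overlap. The order depended on gene length. Per kilobase of the longest transcript Rb1 stood at 220 and Cdkn2c at 141 in PEA. In CON, Ccnd1 at 1327 then overlapped with Ccnd3 at 1105. Cdk2 at 256, Cdkn1b at 251 and Rb1 at 234 overlapped with one another and hold no order. Cdkn1b stood below Ccnd2 at 314 without overlap. Against all genes tested, Cdk4 had a percentile of 96.7, Ccnd1 of 94.0, Ccnd3 of 85.8 and Ccnd2 of 70.9, while Cdkn2c had 48.2 in CON and 54.3 in PEA. The median gene tested stood at 93.6 per kilobase in CON. In these differentiated cultures, myotube markers such as Myh3 stood beside division markers such as Mki67. Per kilobase of exon, the 3 D cyclins, Cdk4, Cdkn1b and Cdk2 were above the median gene in both groups. Rb1 lay near it, with a percentile of 50.9 in CON and 48.8 in PEA. Cdkn2c stood below it in CON and above it in PEA, where the median gene was at 95.4. How much of each transcript came from post-mitotic myotubes was not tested.

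**Figure D4:**
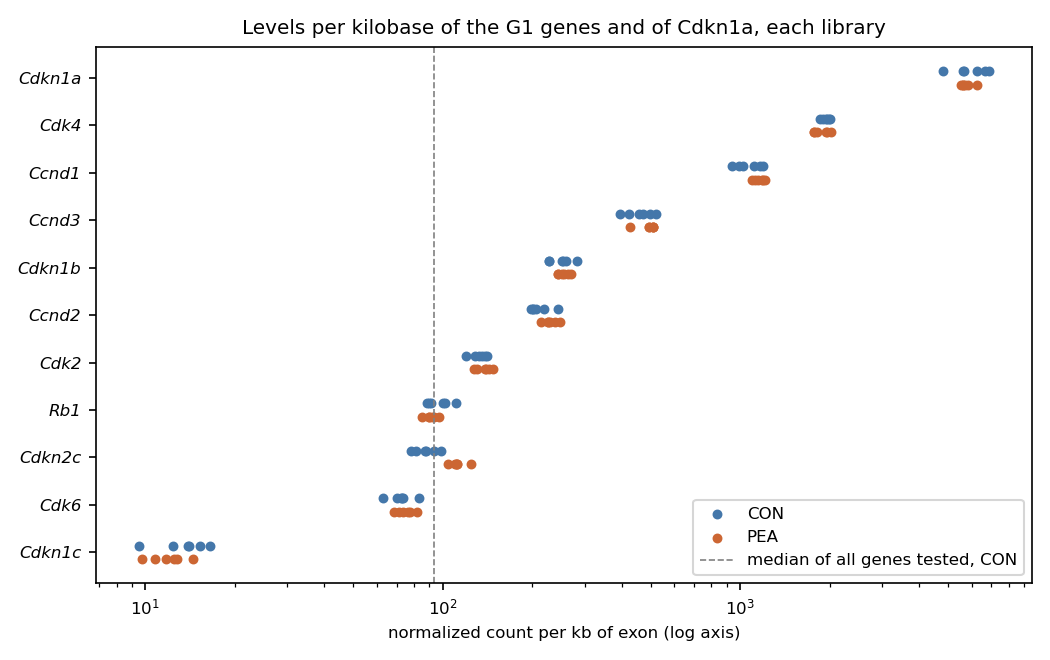
Level of each gene (normalized counts per kilobase of exon, log axis) in 6 CON and 6 PEA libraries, with Cdkn1a added and the genes ordered by the CON mean; the dashed line marks the median of all genes tested in CON, 93.6. Of the 10 genes Cdk4 is the highest with a CON mean of 1943 and Cdkn1c the lowest with 13.6.

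Cdkn1a, another CIP/KIP inhibitor and a known mark of myoblasts that have left the cell cycle, was the most abundant inhibitor transcript here. Its level per kilobase was 5978 ± 776 in CON, a percentile of 98.8, and 5764 ± 263 in PEA. This was 24.2 times the level of Cdkn1b in CON and 22.6 times in PEA, and 3.44 ± 0.502 times the summed D cyclins in CON against 3.07 ± 0.178 in PEA. Its normalized count did not differ by the test (log2 fold change -0.05 ± 0.07, SE, adjusted p = 0.698). The other INK4 genes, Cdkn2a, Cdkn2b and Cdkn2d, were not analysed here.

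The wider set of G1 regulators held 42 genes, of which 38 were in the tables and tested. There 8 rose and 1 fell, beside 11.0% of all genes called and 6.31% called as higher, with a median log2 fold change of 0.03. The E and A cyclins, which drive S phase, rose in 3 of 3 cases. Ccne1 averaged 281 ± 55.6 (SD, n = 6) in CON and 497 ± 52.0 in PEA, a log2 fold change of 0.83 ± 0.11 (SE) at an adjusted p of 0.000467, with no overlap of the groups. Ccna2 went from 667 ± 209 to 1281 ± 109 (0.94 ± 0.15, adjusted p = 0.00115), also without overlap, and Ccne2 from 247 to 336 (0.44, adjusted p = 0.00838).

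Of the pocket proteins related to Rb1, Rbl1 averaged 305 ± 15.9 in CON and 395 ± 35.6 in PEA without overlap, a rise of 0.38 ± 0.07 on the log2 scale (SE, adjusted p = 0.00492). Rbl2 averaged 1516 in CON and 1618 in PEA and did not pass (adjusted p = 0.143). Of 10 E2F and DP factors 2 rose. The repressor E2f7 went from 150 to 267 (0.84, adjusted p = 0.00422) and the activator E2f1 from 641 to 761 (0.25, adjusted p = 0.0426), a call that held without CON replicate 3 or PEA replicate 5 and was lost without any of the other 10 libraries (adjusted p from 0.0547 to 0.0894). No MuvB core gene of 4 and no gene of 5 for CDK activation passed. Of 13 genes for the turnover of cyclins and inhibitors, Cks1b (0.29, adjusted p = 0.0245) and Skp2 (0.31, adjusted p = 0.0473) rose and Skp1 (-0.21, adjusted p = 0.0188) fell. The Skp2 call held in 2 of 6 alternative analyses, and with 1 library left out it held without CON replicate 1, CON replicate 2 or PEA replicate 4 and was otherwise lost (adjusted p from 0.0609 to 0.106). Cks1b was lost without CON replicate 5, PEA replicate 5 or PEA replicate 6 (adjusted p from 0.0546 to 0.0584), and Skp1 without PEA replicate 5 (adjusted p = 0.0513).

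The E cyclins passed the test and the D cyclins did not. Per kilobase, the summed D cyclins stood at 14.6 ± 2.18 times the summed Ccne1 and Ccne2 in CON, with a range of 10.9 to 17.3, and at 9.60 ± 0.677 times in PEA, with a range of 8.77 to 10.5. The groups did not overlap in this ratio. Summed D cyclins stood at 0.866 ± 0.0385 of summed Cdk4 and Cdk6 in CON and at 0.963 ± 0.0401 in PEA, with overlapping libraries.

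Markers of dividing cells moved with Cdkn2c. All 10 were higher in PEA and 8 passed. Of all 13142 genes tested, 6738 were higher and 829 passed as higher. The 10 markers had a median log2 fold change of 0.58. Their summed normalized count ran from 10478 to 14054 in CON and from 15357 to 17727 in PEA. Mki67 went from 486 ± 260 to 986 ± 203 (SD, n = 6, adjusted p = 0.0149), Top2a from 1145 ± 349 to 2203 ± 151 (adjusted p = 0.000937) and Cdk1 from 1010 ± 234 to 1504 ± 101 (adjusted p = 0.00426). In such bulk libraries more cells of a type and more RNA per cell cannot be told apart.

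Within CON, replicate 2 had the highest and replicate 3 the lowest value of Cdkn2c, and likewise of Mki67 (983 and 209), Top2a (1754 and 686) and Cdk1 (1453 and 763). The Mki67 count of CON replicate 2 lay inside the PEA range of 729 to 1236, whereas its Cdkn2c count of 626 lay below all PEA libraries. Within PEA the order differed from marker to marker. PEA replicate 5 had the highest Mki67 and Top2a and the lowest Cdkn2c. By contrast, PEA replicate 1 had the highest Cdkn2c and the highest Cdk1, with Mki67 at 1189. Without CON replicate 2 the log2 fold change of Cdkn2c was 0.39 (adjusted p = 0.00057), and without CON replicate 3 it was 0.32 (adjusted p = 0.0053). The part of dividing cells in the rise of Cdkn2c was not tested.

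**Figure D5:**
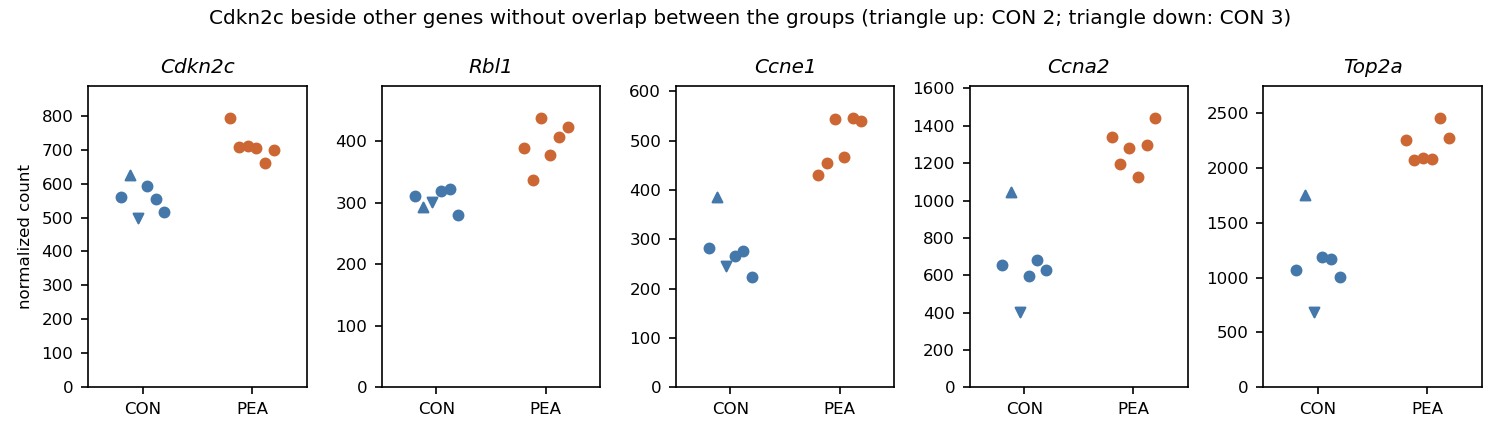
Normalized counts (linear scale, own axis per panel) of Cdkn2c, Rbl1, Ccne1, Ccna2 and Top2a in each of 6 CON and 6 PEA libraries, with an upward triangle for CON replicate 2 and a downward triangle for CON replicate 3. These 5 genes were drawn because their groups do not overlap; CON replicate 2 is the highest CON library for Cdkn2c (626), Ccne1 (385), Ccna2 (1044) and Top2a (1754) but not for Rbl1 (294).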

How the data were processed

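RNA-seq of 6 CON and 6 PEA libraries was used. Groups came from the labels, in which PEA replicate 2 has 2 runs that share 1 set of values and count as 1 library. The authors prepared poly-A libraries, aligned reads with STAR 4.4.1d to mm39, and used Partek Flow to assign them to Ensembl genes. The first table the authors deposited holds estimated counts. Of the values above 0, 30.8% lay more than 0.01 from a whole number, and all were rounded. A second table the authors deposited holds a signal, the same counts divided by 1 DESeq2 median-ratio factor per library. Strand use in counting is not given in the sources used here. Symbols and positions came from GENCODE for GRCm39. The tables end at an identifier beyond which 2240 protein-coding genes were not analysed here.

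The main test was edgeR 4.0.16 in R 4.3.3 (quasi-likelihood, TMM, default filter on low counts, Benjamini-Hochberg adjustment, threshold 0.05). TMM factors lay between 0.988 and 1.02, and the biological coefficient of variation was 0.106. Libraries held 12354845 to 50397444 estimated counts. The SEs, intervals and p-values treat the 6 libraries of a group as independent replicates. The study used DESeq2, which served as an alternative (1.42.0), beside limma 3.58.1 (voom, and log2 of the deposited normalized counts plus 1), median-of-ratios factors, no filter on low counts, the replicate number as a block, each library left out in turn, and length by the longest transcript. Tables and figures used Python 3.11.15, pandas 2.3.3, numpy 2.4.6 and matplotlib 3.10.9.

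Named are the 10 genes, Cdkn1a, the other INK4 genes, Ccne1, Ccne2, Rbl1, Rbl2, E2f1, each called gene of the G1 regulator lists up to 12, and defining markers. Marker genes named as called in a list, and genes with shared exons, were added after their values were seen. The members and lists were chosen with earlier results of these data known. Protein sequences were not used here.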

Additional observations from a re-analysis of the deposited data

Results flagged for a closer look

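In 58 groups of 6 libraries, 1 for each named gene and treatment, 6 held a library far from the other 5 by Dixon's criterion, which chance meets in about 1 group of 20. Ccnd3 in PEA replicate 4 was 3933 normalized counts, against 4563 to 4723 in the other PEA libraries. Ccne1 in CON replicate 2 was 385, against 225 to 283 in the other CON libraries. E2f1 in CON replicate 3 was 786, against 561 to 640 in the other CON libraries. Mki67 in CON replicate 2 was 983, against 209 to 465, and Cdk1 in the same library was 1453, against 763 to 1002 in the other CON libraries. Myog in PEA replicate 4 was 9240, against 10536 to 11284 in the other PEA libraries.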

How the results depend on the processing

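Over 6 alternatives with all libraries and 12 with 1 library left out, 179 of 180 fold changes of the 10 genes kept their side of the threshold, the exception being Ccnd2 without CON replicate 4. Cdkn2c passed in all 18, with adjusted p from 5.84e-05 to 0.00976. With a library left out, 1 to 2 of the 10 genes passed, and the number of all genes called was lowest without PEA replicate 6 at 778 and highest without CON replicate 2 at 2203, against 1452. It was also 864 without CON replicate 6, 906 without PEA replicate 2, 963 without PEA replicate 4 and 794 without PEA replicate 5. With the longest transcript as length the Ccnd1 share was 48.29% in CON and 48.64% in PEA and the Ccnd3 share 40.24% and 39.75%. As a replicate block the replicate number gave 1570 genes called, 1 of the 10 genes, and a Cdkn2c log2 fold change of 0.36 (adjusted p = 0.00516). The correlation of same-numbered libraries' deviations ran from -0.08 to 0.06. The highest of any CON library with any PEA library was 0.128. This measure thus found no pairing of any kind, and it cannot decide whether the number pairs the libraries. The block also took Skp2 to an adjusted p of 0.0749. The cause of these differences was not tested. Depth was lowest for Cdkn1c, with 13 to 79 estimated counts, and its interval was the widest.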

Other observations

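The spread within groups was larger in CON than in PEA for most of the 10 genes. The coefficient of variation over 6 libraries was lower in PEA for 9 of 10, Cdk4 being the exception with 3.11% in CON and 5.68% in PEA, and its median was 8.65% in CON and 5.72% in PEA. Over all genes tested 65.8% had the lower coefficient in PEA. Without CON replicate 2 and CON replicate 3 this was 53.7% of all genes and 7 of the 10. These libraries had the highest and lowest Cdkn2c and Mki67 of CON. Leaving out such extremes lowers the CON spread by choice, and CON then held fewer libraries than PEA.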
